A study of Saccharomyces cerevisiae with 16 samples.

Results

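The genes described here encode 10 proteins of the cell wall of budding yeast, grouped as its abundant wall proteins: *GAS1* (YMR307W), *CWP1* (YKL096W), *TIP1* (YBR067C), *PIR1* (YKL164C), *PIR3* (YKL163W), *HSP150* (YJL159W), *CCW12* (YLR110C), *CCW14* (YLR390W-A), *SED1* (YDR077W) and *TIR1* (YER011W). They were taken by systematic name from the tables of read counts, where all 10 were found among 5647 genes. Their mRNA, their ribosome footprints and the ratio between them were followed in cells with a damaged eIF3, the largest factor of translation initiation, and in WT cells. Footprints are the mRNA pieces that ribosomes shield from nuclease, and translational efficiency (TE) is the footprint level of a gene divided by its mRNA level.

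The wall of *S. cerevisiae* is a mesh of glucan and a little chitin that bears a coat of heavily mannosylated proteins. All these proteins enter the secretory pathway, where sugars are added to their serine and threonine residues. One class receives a GPI (glycosylphosphatidylinositol) anchor, which leaves the protein in the plasma membrane or is trimmed so that the protein can be joined to glucan. The PIR class has no GPI anchor and is joined to glucan through glutamines within its internal repeats. Wall genes are known to respond to heat and to wall damage through a MAP kinase cascade, the cell wall integrity pathway.

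The *eIF3a/b Degron* cells (strain YAJ34) carried eIF3a and eIF3b as *tif32-td* and *prt1-td*, degron fusions made from the copper-dependent *CUP1* promoter, so that both proteins are destroyed after a shift. Both they and their WT (strain YAJ3, with the *URA3* plasmid pRS316) were MATa with *UBR1*, the ubiquitin ligase that recognises the degron, as PGAL1-myc-UBR1, and both carried gcn2::hisG, ura3-52 and *trp1* and *leu2* mutations. Mutant and WT of this background were grown at 25°C in raffinose medium with copper and then held at 36°C for 90 min with galactose and the copper chelator BCS. The *eIF3i DDKK* cells carried eIF3i with the substitutions D207K and D224K and an HA tag (TIF34-D207K-D224K-HA) on a plasmid, and their WT carried the same plasmid with TIF34-HA. Both of these were derived from H450, also MATa, in which chromosomal *TIF34* is deleted, which has *trp1* and *leu2* mutations, carries ura3-52::GCN2 and held high-copy *TIF34* with *URA3*, and both were grown at 30°C in SC medium and held at 37°C for 30 min. Each of the 4 strains was sampled as 2 cultures, and each culture gave an mRNA library and a footprint library, so that there were 16 libraries. Cycloheximide was given before harvest in all of them. Each mutant is a single strain with its own WT, and cultures from before the heat shift were not analysed here, so that values are from heat-shifted cells throughout. The study's methods call the 2 cultures of a strain biological replicates, and p-values measure the spread between these 2.

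The PIR proteins are named after their repeats, which are visible in the coding sequences. The repeat core searched was an Asp or Glu codon, a Gly codon, a Gln or His codon, any codon, and a Gln or His codon, in frame and on the coding strand only. Its first copy in each of the 3 PIR genes is shown because the copies are what sets these genes apart in sequence from the other members. Capitals mark the core, and positions are on the R64 assembly of RefSeq.

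*PIR1*, chrXI:142592-142615, minus strand: caaattggtGACGGTCAAATCCAA
*PIR3*, chrXI:144611-144634, plus strand: cagataggtGATGGTCAAGTACAG
*HSP150*, chrX:120674-120697, plus strand: caaattggtGATGGTCAAGTCCAA

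There were 8 copies in *PIR1*, 8 in *PIR3* and 11 in *HSP150*, which is also known as *PIR2*. *CWP1* and *TIR1* had 1 copy each, and the core was not found in the coding sequences of the other members. Over all 5450 genes with an annotated coding sequence, 67 (1.23%) held at least 1 copy, and 4 genes (0.0734%) held at least 3. Those 4 were *PIR1*, *PIR3*, *HSP150* and *PIR5*, the gene beside *HSP150*, with 4 copies. A match is a description of letters and not of a bound residue.

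Repeats and close relatives also decide how well a read can be placed. *PIR1* and *PIR3* shared 102 of their 28-nt windows, which are 10.9% of the windows of *PIR1* and 11.4% of those of *PIR3*. Their longest exact match ran over 77 nt, and its first 30 bases are shown because a footprint from this stretch could belong to either gene.

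*PIR1*, chrXI:141968-141997, minus strand, and *PIR3*, chrXI:145175-145204, plus strand: ttccaattcgatggtcctccaccacaagct
*HSP150*, chrX:121451-121480, plus strand, and *CIS3*, chrX:122475-122504, minus strand: aagggtagaattggttctattgttgctaac

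The line for *HSP150* and its relative *CIS3* gives the start of a 65-nt match, and 3.29% of the *HSP150* windows occurred in *CIS3*. *TIR1* shared 2.80% of its windows with *TIR2*. *GAS1*, *CWP1*, *TIP1*, *CCW12*, *CCW14* and *SED1* shared none with another gene. Within a gene, repeated windows made up 18.5% of *SED1*, 17.8% of *PIR1*, 17.1% of *TIR1*, 15.8% of *HSP150*, 12.1% of *PIR3* and 3.49% of *CCW14*. How reads with more than 1 placement were treated is not given in the sources used here, so that the values of *PIR1* and *PIR3* are uncertain to that extent.

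All 10 genes have a single coding exon. *GAS1* lies at chrXIII:887003-888682, *CWP1* at chrXI:261132-261851, *TIP1* at chrII:372103-372735, *PIR1* at chrXI:141794-142819 and *PIR3* at chrXI:144401-145378. *HSP150* lies at chrX:120449-121690, *CCW12* at chrXII:369697-370098, *CCW14* at chrXII:903724-904440, *SED1* at chrIV:600793-601809 and *TIR1* at chrV:175248-176012. *PIR1* and *PIR3* are neighbours that are read away from each other, and *CWP1* lies beside *CWP2*, which encodes another GPI wall protein. The coding sequences span 402 nt in *CCW12* to 1680 nt in *GAS1*, against a median of 1242 nt over 5450 genes. Serine and threonine codons made up 21.2% (*PIR3*) to 42.4% (*CCW14*) of the codons, against a median of 13.7%, and every member was at or above percentile 95.8 of all genes. GC content was between 41.6% (*GAS1*) and 52.0% (*CCW12*), against a median of 39.7%.

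The libraries of both mutants were shallower than those of WT, at 5136423 to 6493910 footprint reads in the mutants against 18160621 to 29982592 in the WT strains. The mRNA libraries held 4389212 to 6390720 reads in the mutants and 6924926 to 12164617 in the WT strains. *YDR445C*, a single dubious reading frame, took 8.79% to 29.9% of the mRNA reads. The genotypes could be read in the data: *GCN2* had 21 to 34 mRNA reads in the libraries of the Degron background, and *UBR1* had 56749 to 141208 there. Mutant and WT share both alterations, which therefore mark the background and not the mutant. In footprint reads *TIF32* had 708 and 697 in *eIF3a/b Degron* cultures against 6033 and 5503 in the deeper WT libraries. *PRT1* had 957 and 951 against 8105 and 7374, and *TIF34*, not altered in this background, 2145 and 1934 against 4079 and 4248. The cause was not tested. The substitutions of eIF3i cannot be read from counts per gene. Of the genes that mark MATa cells, *STE2*, the receptor for alpha-factor, had 4545 to 13385 mRNA reads, against 4 to 123 for *MF(ALPHA)1*, which encodes alpha-factor itself. The 4 a-specific genes checked had 7122 to 18602 mRNA reads together, and the 3 alpha-specific genes 64 to 287. Other pairs were closer: in the DDKK background a-specific *MFA1* had 167 to 329 mRNA reads and alpha-specific *STE3* 56 to 225.

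The 10 genes took a larger share of the ribosomes in both mutants than in WT. They held 3.68% and 4.01% of footprint reads in the *eIF3a/b Degron* cultures, against 1.83% and 1.78% in WT. The *eIF3i DDKK* cultures had 3.83% and 4.33%, against 2.51% and 2.70% in WT. Of the mRNA reads they held 1.13% and 1.20% in the *eIF3a/b Degron* cultures against 0.810% and 0.831% in WT. The *eIF3i DDKK* cultures had 1.04% and 1.19% against 0.803% and 0.855% in WT. The Wilson intervals of mutant and WT (95%, counting error only) did not overlap. With *YDR445C* left out of the totals, the *eIF3i DDKK* mRNA shares were 1.33% and 1.60%, against 1.15% and 1.04% in WT. No spike-in is named in the sources used here, and a share can grow because other genes lose reads.

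**Figure D1:**
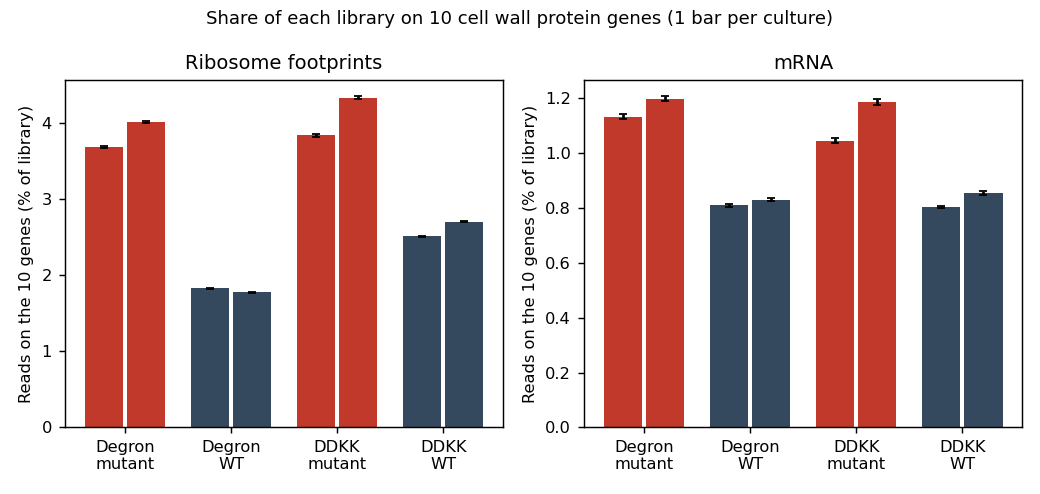
Share of library reads on the 10 genes (%) for footprints (left) and mRNA (right), with 1 bar per culture, mutants in red, WT in dark blue and 95% Wilson intervals as error bars. In both assays both cultures of each mutant stand above both cultures of its WT, and footprint shares reach 4.33% in the *eIF3i DDKK* cultures.

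*HSP150*, *SED1* and *CCW12* supplied most of those footprints. *HSP150* is a heat-inducible PIR protein, *SED1* a GPI protein and major structural component of the stressed or resting wall, and *CCW12* a small GPI protein of the growing wall. *SED1* made up 43.3% and 42.3% of the footprints of the 10 genes in *eIF3a/b Degron* cultures, against 28.5% and 28.3% in WT. In *eIF3i DDKK* cultures its part was 39.7% and 40.8%, against 33.5% and 36.9% in WT. The part of *HSP150* was 27.4% and 29.1% in *eIF3a/b Degron* cultures against 34.4% and 34.5% in WT. *GAS1* made up 2.51% and 2.37% of these footprints in *eIF3a/b Degron* cultures against 6.62% and 6.97% in WT. The *eIF3i DDKK* cultures had 1.93% and 0.979% against 5.11% and 4.07% in WT.

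Levels between genes can be compared per length. In footprint reads per kb of counted sequence per 1000000 reads of the library, *SED1* had 16666 and 17722 in *eIF3a/b Degron* cultures against 5445 and 5256 in WT, which is rank 6 in both mutant cultures and rank 27 in both WT cultures among the genes tested. *CCW12* had 15345 and 16102 in the mutant (rank 8 in both) against 7484 and 7413 in WT (rank 19 in both). *CWP1*, a GPI mannoprotein of the wall, had only 42.5 and 57.3 in *eIF3a/b Degron* cultures and 46.9 and 41.0 in their WT. The same gene had 1092 and 1962 in *eIF3i DDKK* cultures and 664 and 792 in their WT, so that its level differed more between the backgrounds than between mutant and WT. *PIR3* had 1035 and 1294 in *eIF3a/b Degron* cultures (rank 236 and 219) against 182 and 175 in WT (rank 855 and 890). *GAS1* had 457 and 262 in *eIF3i DDKK* cultures (rank 432 and 732) against 791 and 679 in WT (rank 263 and 295). *PIR1*, *TIP1* and *CCW14* lay between ranks 99 and 324 in all cultures, and *HSP150* between 14 and 30. Medium, temperature and time differ between the backgrounds as well as the strains, and these cannot be told apart.

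Of the members 9 were measured deeply enough to test. A gene needed an average of 32 mRNA reads over the 4 mRNA libraries of a background, which left 5306 genes in the Degron and 5244 in the DDKK background, and all members but 1 passed in both. *TIR1*, which encodes a GPI mannoprotein known for its induction in the cold and without oxygen, did not. It had 17 and 8 mRNA reads in *eIF3a/b Degron* cultures against 12 and 29 in WT. The *eIF3i DDKK* cultures had 12 and 9 against 57 and 26 in WT. Its footprint reads were 24 and 34 in *eIF3a/b Degron* cultures against 49 and 52 in WT. The *eIF3i DDKK* cultures had 45 and 67 against 324 and 264 in WT. At these counts no change could be given for it. Its low level also goes against calling all 10 genes abundant, and *CWP1* was a low-level gene in the Degron background.

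In *eIF3a/b Degron* cells, 6 of the 9 members tested rose in mRNA, 2 fell and *CWP1* did not pass (edgeR quasi-likelihood test, Benjamini-Hochberg adjusted p under 0.05). That is to be read against 75.1% of all genes tested that were called in one direction or the other, 44.3% up and 30.8% down. The median change of the 9 was 0.52 on the log2 scale, beside 0.12 over all genes. In footprints 5 rose, *GAS1* fell and 3 did not pass, with 83.2% of all genes called (41.8% up and 41.3% down) and medians of 0.57 for the members and 0.01 for all genes. The count that rose in footprints was 6, and the median 0.81, with library size alone. Under that scaling 2632 of all genes rose and 1790 fell in footprints, and the median of all genes was 0.24. Levels across libraries are given as RPM, the reads of a gene per 1000000 reads after TMM scaling of the 8 libraries of a background. The libraries came from whole cultures, so that a change in every cell cannot be told apart from one in fewer cells.

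*PIR3* had the largest change of the group. Its mRNA stood at 212 and 270 RPM in *eIF3a/b Degron* cultures against 37.6 and 40.4 in WT, a change of 2.62 ± 0.11 (log2, SE, 6.15-fold, adjusted p = 7.39e-16). Its footprints stood at 1077 and 1336 in the mutant against 224 and 212 in WT, a change of 2.47 ± 0.10 (5.53-fold, adjusted p = 5.79e-17). Mutant and WT cultures were far apart in both assays, and the mRNA change was above those of 99.9% of the genes tested.

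*PIR1*, its divergent neighbour and closest relative, went the other way in mRNA. It had 154 and 153 RPM of mRNA in *eIF3a/b Degron* cultures against 203 and 209 in WT (−0.42 ± 0.07, adjusted p = 8.86e-06). Its footprints were 888 and 881 in the mutant against 974 and 897 in WT, and the change of −0.08 ± 0.06 did not pass (adjusted p = 0.24). This footprint change turned to 0.16 and passed with library size alone (adjusted p = 0.0221), so that its direction depends on the scaling. *HSP150*, the PIR gene with the most reads per kb, rose in both assays. Its mRNA was at 3381 and 3628 in the mutant against 2025 and 2080 in WT (0.77 ± 0.07, adjusted p = 2.2e-09), and its footprints were at 11415 and 13146 against 8404 and 8109 in WT (0.57 ± 0.07, adjusted p = 1.72e-07).

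*SED1* had the largest rises in mRNA and footprints among the GPI proteins of the 9 members tested. It had 1936 and 2208 mRNA RPM in *eIF3a/b Degron* cultures against 1247 and 1213 in WT (0.75 ± 0.07, adjusted p = 3.01e-09). Its footprints reached 18073 and 19072 in the mutant against 6976 and 6650 in WT, which is 2.73-fold more (1.45 ± 0.07, adjusted p = 8.99e-15). The footprint change was larger than the mRNA change, and mutant and WT cultures did not overlap in either assay.

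*CCW12* and *CCW14*, a GPI protein of the inner wall layer, rose less. *CCW12* mRNA was at 1750 and 1621 RPM in *eIF3a/b Degron* cultures against 1115 and 1237 in WT (0.52 ± 0.07, adjusted p = 4.76e-07), and its footprints were at 5947 and 6193 against 3427 and 3352 in WT (0.84 ± 0.07, adjusted p = 7.35e-11). *CCW14* mRNA was at 302 and 319 in the mutant against 207 and 224 in WT (0.53 ± 0.07, adjusted p = 4.4e-07), and its footprints were at 1878 and 2044 against 1235 and 1231 in WT (0.67 ± 0.07, adjusted p = 1.92e-09). For both genes the cultures of mutant and WT did not overlap in mRNA or in footprints.

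*TIP1*, a GPI mannoprotein known for its induction by temperature shocks, fell in mRNA alone. Its mRNA was at 299.7 and 284 RPM in *eIF3a/b Degron* cultures against 447 and 454 in WT (−0.63 ± 0.07, adjusted p = 2.82e-08). Its footprints were at 1369 and 1337 in the mutant against 1542 and 1366 in WT, overlapping ranges with a change of −0.10 ± 0.07 (adjusted p = 0.154). *CWP1* had 8.69 and 17.02 mRNA RPM in the mutant against 8.28 and 10.0 in WT (0.47 ± 0.23, adjusted p = 0.0658), with footprints of 31.8 and 42.6 RPM against 41.4 and 35.8 in WT (−0.06 ± 0.16, adjusted p = 0.736). The *CWP1* mRNA values rested on 66 and 123 reads in *eIF3a/b Degron* cultures, against 94 and 138 in WT.

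*GAS1*, the glucanosyltransferase that elongates wall glucan, was the member whose mRNA and footprints parted. Its mRNA was at 1493 and 1501 RPM in *eIF3a/b Degron* cultures against 1134 and 1161 in WT, a rise of 0.38 ± 0.06 (adjusted p = 6.45e-06). In the fit of all 16 libraries this mRNA change was 0.25 and did not pass (adjusted p = 0.329). Its footprints fell to 1047 and 1069 in the mutant, against 1617 and 1637 in WT (−0.62 ± 0.06, adjusted p = 2.4e-09). The 2 cultures of a strain differed by at most 1.02-fold in these values.

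**Figure D2:**
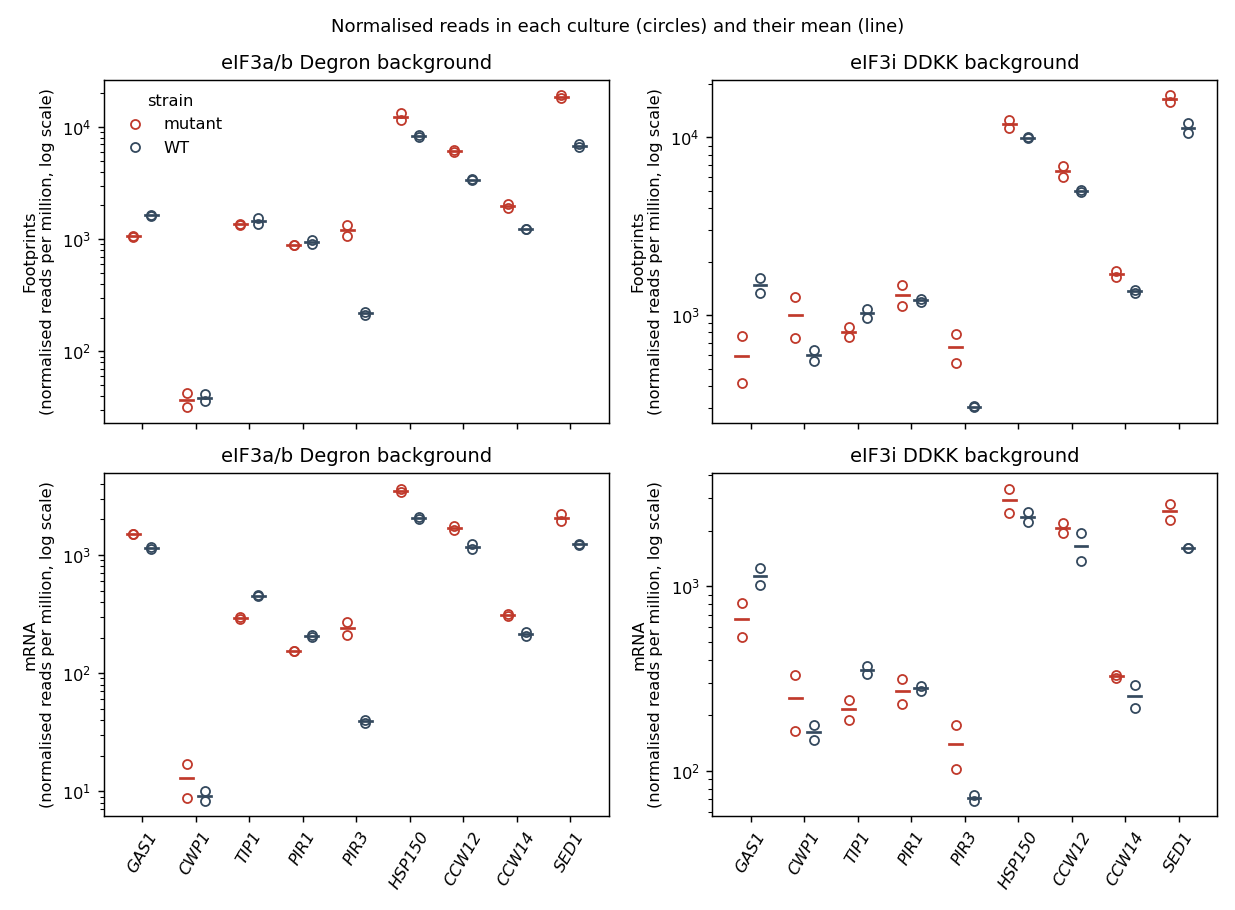
Footprints (top) and mRNA (bottom) of the 9 genes tested, in normalised reads per 1000000 on a log axis, for the Degron background (left) and the DDKK background (right), with 1 circle per culture and a line at the mean of both, mutant in red and WT in dark blue. *PIR3* stands apart in the Degron background at 1077 and 1336 footprint RPM in the mutant against 224 and 212 in WT.

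TE in *eIF3a/b Degron* cells changed in opposite directions within the group. Of the 9 members 4 rose, *GAS1* fell and 4 did not pass, beside 59.8% of all genes called in TE (26.8% up and 33.1% down), with medians of 0.14 and −0.04. That genome-wide balance depends on scaling, with 1420 genes up and 1755 down under TMM and 2478 up and 978 down when library size alone was used. The changes of the 5 called members kept their direction and their call with library size alone and with DESeq2's size factors. With library size alone *CCW14* passed as well (0.46, adjusted p = 0.000232), which made 5 that rose. The median was then 0.46, beside 0.27 over all genes. In the fit of all 16 libraries *PIR1* and *CCW12* missed the threshold, with changes of 0.51 and 0.49.

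*GAS1* had a TE of 0.701 and 0.712 in *eIF3a/b Degron* cultures against 1.43 and 1.41 in WT. It fell 2.01-fold (−1.0 ± 0.09 on the log2 scale, adjusted p = 2.24e-09), which put it at percentile 8.56 of the genes tested. *SED1* had a TE of 9.34 and 8.64 in the mutant against 5.59 and 5.49 in WT (0.69 ± 0.10, adjusted p = 5.51e-06). *TIP1* had 4.57 and 4.70 against 3.45 and 3.01 in WT (0.52 ± 0.10, adjusted p = 8.15e-05). For *TIP1* the fall in mRNA and the rise in TE were of like size, and its footprints did not pass.

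*PIR1* had a TE of 5.78 and 5.74 in *eIF3a/b Degron* cultures against 4.81 and 4.30 in WT (0.34 ± 0.09, adjusted p = 0.00355). *CCW12* had 3.40 and 3.82 in the mutant against 3.07 and 2.71 in WT (0.32 ± 0.10, adjusted p = 0.00732). These were the smallest of the TE changes called, and the calls were lost in some fits that left out 1 culture. Without WT culture 2 the change was 0.26 for *PIR1* (adjusted p = 0.0806) and 0.23 for *CCW12* (adjusted p = 0.134), and without mutant culture 2 it was 0.24 for *CCW12* (adjusted p = 0.14). The remaining changes in TE were −0.53 ± 0.28 for *CWP1* (adjusted p = 0.107), −0.20 ± 0.10 for *HSP150* (adjusted p = 0.105), −0.15 ± 0.14 for *PIR3* (adjusted p = 0.369) and 0.14 ± 0.10 for *CCW14* (adjusted p = 0.207). *PIR3*, with the largest changes in mRNA and footprints, was thus not among the genes called in TE. Its TE was 5.08 and 4.96 in *eIF3a/b Degron* cultures against 5.95 and 5.24 in WT, and that of *HSP150* was 3.38 and 3.62 against 4.15 and 3.90 in WT. Both mutant cultures lay below both WT cultures for these PIR genes, but the share of all genes that do so was not counted. *CCW14* had a TE of 6.21 and 6.41 in the mutant against 5.96 and 5.50 in WT, and *CWP1* had 3.65 and 2.50 against 5.01 and 3.58 in WT. With the culture as a block, since each culture gave both libraries, *HSP150* (−0.20, adjusted p = 0.00933) and *CWP1* (−0.51, adjusted p = 0.0357) fell as well.

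Fewer members passed the test in *eIF3i DDKK* cells. In mRNA 2 rose, *TIP1* fell and 6 did not pass, beside 28.5% of all genes called (16.5% up and 12.0% down) and medians of 0.32 for the members and 0.11 for all genes. In footprints 2 rose, *GAS1* fell and 6 did not pass, beside 52.4% of all genes called (26.2% up and 26.2% down) and medians of 0.32 and 0.01. With library size alone the mRNA calls over all genes were 1234 up and 303 down, against 867 up and 630 down under TMM, and the footprint calls were 1973 up and 647 down, against 1375 up and 1373 down. Under that scaling 6 members rose in mRNA and 6 in footprints. The mutant cultures of this background also differed more from each other than the others did, with a median difference of 0.232 (log2) over all genes in footprints, against 0.109 between the WT cultures.

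*PIR3* and *SED1* rose in both assays. *PIR3* mRNA was at 102 and 177 RPM in *eIF3i DDKK* cultures against 68.7 and 74.0 in WT (0.97 ± 0.25, adjusted p = 0.0191), and its footprints were at 537 and 786 against 303 and 309 in WT (1.11 ± 0.25, adjusted p = 0.00416). *SED1* mRNA was at 2299 and 2806 in the mutant against 1606 and 1608 in WT (0.67 ± 0.18, adjusted p = 0.0233), and its footprints were at 15777 and 17255 against 10615 and 12125 in WT (0.54 ± 0.18, adjusted p = 0.0314). Mutant cultures lay above WT cultures in each of these, by 1.45-fold to 2.16-fold on average.

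Several of these calls were lost when 1 culture was left out, while the changes kept their direction. Without a WT culture the changes moved by less than their standard errors. Leaving out a WT culture also lowered the number of calls over all genes in this background, as given under the processing. Without WT culture 1 or 2 the *PIR3* mRNA change was 0.91 or 1.02 (adjusted p = 0.206 or 0.136) and its footprint change 1.10 or 1.13 (adjusted p = 0.0587 or 0.0507). Without mutant culture 2 the *PIR3* mRNA change was 0.50 (adjusted p = 0.0104). For *SED1* the mRNA change was 0.67 without either WT culture (adjusted p = 0.224 and 0.183) and 0.50 without mutant culture 2 (adjusted p = 0.117), and the footprint change was 0.45, 0.64 and 0.47 in the same order (adjusted p = 0.273, 0.118 and 0.11). Each such fit leaves 1 sample in an arm and assumes that it varies like the others.

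*TIP1* and *GAS1* were lower. *TIP1* mRNA was at 190 and 242 RPM in *eIF3i DDKK* cultures against 368 and 334 in WT (−0.70 ± 0.16, adjusted p = 0.0122), and its footprints were at 758 and 853 against 965 and 1079 in WT (−0.34 ± 0.16, adjusted p = 0.0983). Without WT culture 1 or 2 the *TIP1* mRNA change was −0.63 or −0.77 (adjusted p = 0.204 or 0.112). *GAS1* footprints were at 767 and 414 in the mutant against 1621 and 1338 in WT, 2.50-fold lower (−1.32 ± 0.29, adjusted p = 0.00429). *GAS1* mRNA was at 807 and 530 in the mutant against 1259 and 1023 in WT, and its change of −0.77 ± 0.29 missed the threshold (adjusted p = 0.0735). That mRNA change passed with DESeq2 (−0.82, adjusted p = 0.0139), with library size alone (−0.58, adjusted p = 0.0484), with a replicate block (−0.80, adjusted p = 0.00129) and in the fit of all 16 libraries (−0.85, adjusted p = 0.00663). Both mutant cultures of *GAS1* lay below both WT cultures in either assay, although they differed from each other by 1.85-fold in footprints.

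The other members did not pass under TMM scaling in *eIF3i DDKK* cells. *HSP150* footprints were at 11283 and 12610 RPM against 10025 and 9874 in WT (0.26 ± 0.19, adjusted p = 0.278). *CCW12* footprints were at 6925 and 5980 against 5047 and 4903 in WT (0.38 ± 0.20, adjusted p = 0.136), and those of *CCW14* were at 1767 and 1640 against 1337 and 1391 in WT (0.32 ± 0.16, adjusted p = 0.127). In these 3 genes both mutant cultures had more footprints than both WT cultures, by 1.20-fold to 1.30-fold. The share of all genes whose cultures separate in this way was not counted. *PIR1* footprints overlapped, at 1127 and 1482 in the mutant against 1232 and 1189 in WT (0.11 ± 0.19, adjusted p = 0.656). *CWP1* footprints were at 746 and 1265 in the mutant against 554 and 636 in WT (0.76 ± 0.32, adjusted p = 0.0697). Both mutant cultures of *CWP1* were above both WT cultures, but they differed from each other by 1.70-fold. The *CWP1* change was 1.09 without mutant culture 1 (adjusted p = 7.84e-05) and 0.33 without mutant culture 2 (adjusted p = 0.0896). It also passed with DESeq2 (0.79, adjusted p = 0.015), with library size alone (1.07, adjusted p = 0.000651), with a replicate block (0.70, adjusted p = 0.00388) and in the fit of all 16 libraries (0.82, adjusted p = 0.0227). In the last of these *CCW12* (0.44, adjusted p = 0.0146) and *CCW14* (0.38, adjusted p = 0.0111) passed too.

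In mRNA the changes of these 5 genes were between −0.04 ± 0.19 (*PIR1*, adjusted p = 0.901) and 0.61 ± 0.32 (*CWP1*, adjusted p = 0.179). *HSP150* mRNA was at 2505 and 3377 RPM in *eIF3i DDKK* cultures against 2534 and 2228 in WT. *CCW12* mRNA was at 1947 and 2200 in the mutant against 1942 and 1370 in WT, and *CCW14* mRNA was at 320.2 and 332 against 292 and 218 in WT. Only for *HSP150* of these 3 did a mutant culture fall within the WT range. *PIR1* mRNA was at 229 and 316 in the mutant against 289 and 269.7 in WT, and *CWP1* mRNA was at 164 and 333 against 147 and 178 in WT, so that the cultures overlapped for both genes.

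Whether a member was called in TE in *eIF3i DDKK* cells depended on the model. Without a block the count was 0 of 9 in edgeR, 0 of 9 at an unadjusted p under 0.05 and 0 of 9 in DESeq2, beside 4.02% of all genes called (1.14% up and 2.88% down), which is 60 genes up and 151 down, or 65 up and 49 down with library size alone. *GAS1* had the lowest change, −0.55 ± 0.41 (adjusted p = 0.503), with a TE of 0.950 and 0.781 in the mutant against 1.29 and 1.31 in WT. With the culture as a block, *GAS1* fell (−0.59, adjusted p = 0.0155), and the deviations of mRNA and of footprints from their strain's mean correlated within a culture at 0.472 in the mutant and 0.295 in WT. *TIP1* had the highest, 0.36 ± 0.23 (adjusted p = 0.426), with 3.99 and 3.52 against 2.62 and 3.23 in WT. *SED1* had a TE of 6.86 and 6.15 in the mutant against 6.61 and 7.54 in WT (−0.13 ± 0.26, adjusted p = 0.828). The other changes without a block were 0.15 for *CWP1*, *PIR1* and *PIR3*, 0.05 for *CCW12*, −0.03 for *CCW14* and −0.04 for *HSP150*. The standard errors of the 9 members were 0.23 to 0.45 here, against 0.09 to 0.28 in the Degron background, so that changes as small as those of *PIR1* and *CCW12* there were not detectable at this precision.

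**Figure D3:**
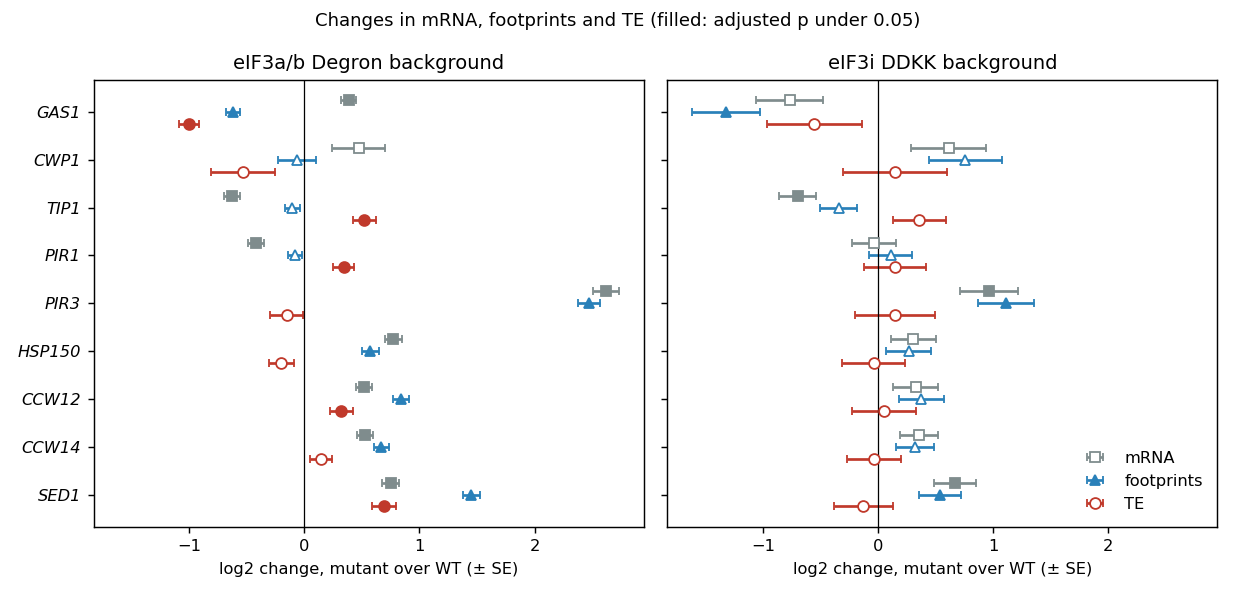
Change of each gene on the log2 scale, mutant over WT, in mRNA (squares), footprints (triangles) and TE (circles), with the standard error as bars and filled symbols for an adjusted p under 0.05. In the Degron background *GAS1* has a TE change of −1.0 and *SED1* one of 0.69, and in the DDKK background no TE symbol is filled in this fit without a block.

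Apart from *GAS1*, the members tested had TE values at percentile 82.7 or higher in every culture. The lowest of these was *CWP1* in *eIF3a/b Degron* culture 2. In WT cells of the Degron background their TE lay at percentiles 87.8 (*CCW12*) to 99.2 (*CCW14*) of the genes tested, and in WT cells of the DDKK background at 89.0 (*CCW12*) to 99.9 (*SED1*). *GAS1* was at percentiles 37.9 and 38.1 in *eIF3a/b Degron* cultures and at 64.9 and 64.5 in WT. In the DDKK background it was at 49.8 and 40.2 in the mutant and at 60.9 and 61.4 in WT. *SED1* was at 99.6 and 99.4 in *eIF3a/b Degron* cultures and at 98.9 and 99.0 in WT. *GAS1* was also the longest member, but with 9 genes no relation to length was tested.

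**Figure D4:**
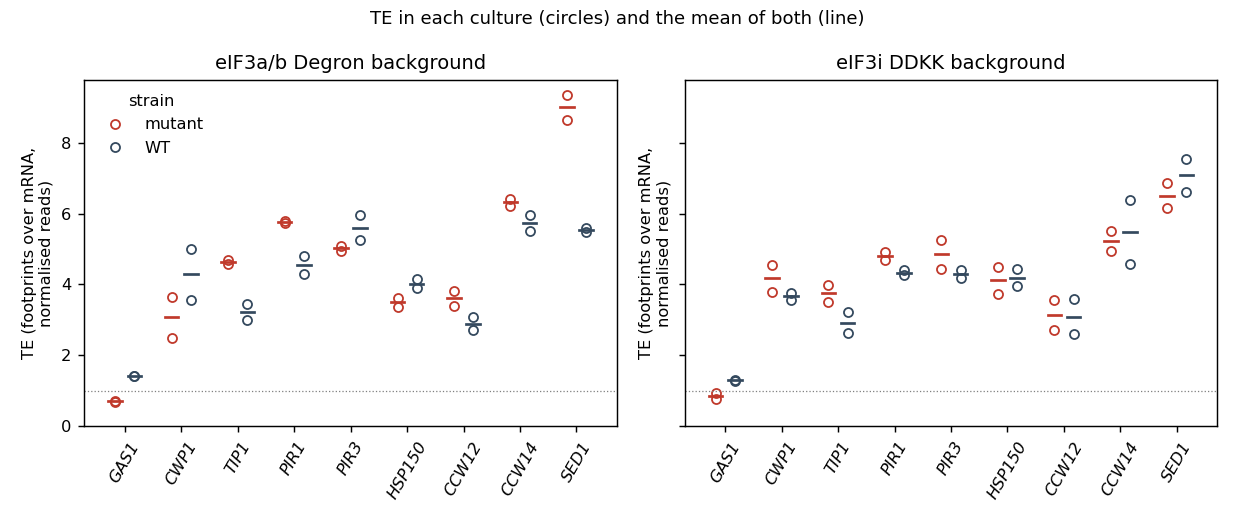
TE of each gene, as normalised footprint reads over normalised mRNA reads, with 1 circle per culture, a line at the mean of both and a dotted line at equal reads, mutant in red and WT in dark blue, for the Degron background (left) and the DDKK background (right). Under TMM scaling *GAS1* lies below the dotted line in all 4 mutant cultures, between 0.701 and 0.950. It lies above the line in all 4 WT cultures, but this WT position depends on the scaling. With library size alone, *GAS1* footprints were below its mRNA in Degron WT cultures 1 (1208.1 against 1429.7) and 2 (1238.3 against 1454.7). The same held in DDKK WT culture 2 (1099.5 against 1196.8), but not in DDKK WT culture 1 (1281 against 1188.5). The mutant cultures stayed below.

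Whether a change differed between the mutants was tested in a fit of all 16 libraries, as the change in *eIF3a/b Degron* minus the change in *eIF3i DDKK* cells, over 5228 genes. In TE 0 of 9 members differed in edgeR, and 1 had an unadjusted p under 0.05, beside 3.67% of all genes called (1.89% up and 1.78% down, which is 99 up and 93 down, and 71 up and 29 down with library size alone). That was *SED1*, with a difference of 0.86 ± 0.26 (adjusted p = 0.0792). With a replicate block the *SED1* difference passed (0.85, adjusted p = 0.0138), beside 238 up and 185 down over all genes. The fall in *GAS1* TE did not differ between the mutants beyond its error (−0.42 ± 0.44, adjusted p = 0.661). In the fit without a block, a TE change called in *eIF3a/b Degron* and not in *eIF3i DDKK* cells is therefore not shown to differ between them. For *SED1* this depends on the model.

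In mRNA and in footprints, contrasts added after the data were seen, 4 differences passed. *GAS1* mRNA had a difference of 1.10 ± 0.31 (adjusted p = 0.0127). In this fit its change was 0.25 in *eIF3a/b Degron* cells, which did not pass (adjusted p = 0.329), and −0.85 in *eIF3i DDKK* cells, which did (adjusted p = 0.00663). In mRNA 38.6% of all genes were called (17.2% up and 21.4% down), with 900 up and 1118 down, or 300 up and 1276 down with library size alone. The *GAS1* call was lost without Degron WT culture 1 (difference 1.08) or 2 (1.12) and without DDKK WT culture 1 (0.96). It was also lost without Degron mutant culture 1 (1.07) or 2 (1.06). Fewer differences in mRNA were called over all genes in each of these fits, which leave 1 sample in an arm. *PIR3* rose more in *eIF3a/b Degron* cells, by a further 1.60 ± 0.32 in mRNA (adjusted p = 0.00131) and 1.33 ± 0.30 in footprints (adjusted p = 0.00167, beside 53.9% of all genes called in footprints, 26.5% up and 27.4% down). *SED1* footprints rose more by 0.89 ± 0.18 (adjusted p = 0.000943), while its mRNA difference was 0.03 ± 0.18 (adjusted p = 0.914). The backgrounds differ in medium, temperature and length of the shift, which cannot be told apart from the mutations.

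Other genes that build the wall were counted in 6 lists. Of 26 other wall proteins tested in the Degron background, 8 rose and 6 fell in TE (median 0.14, and 14 and 3 with library size alone), and of 25 in the DDKK background 1 rose and 1 fell (median −0.02). Of all genes tested, 26.8% rose and 33.1% fell in TE in the Degron background, and 1.14% and 2.88% in the DDKK background. *DSE2* fell in TE in *eIF3a/b Degron* cells (−1.67 ± 0.15, adjusted p = 4.12e-09). The gene that fell in *eIF3i DDKK* cells was *FLO10* (−3.63 ± 0.60, adjusted p = 0.0146), on 234 footprint reads. *CWP2*, the GPI wall protein next to *CWP1*, rose by 1.32 ± 0.11 in TE (adjusted p = 6.11e-10) and by 1.83 ± 0.07 in footprints (adjusted p = 1.11e-16) in *eIF3a/b Degron* cells, whereas *CWP1* passed in neither. *AGA2*, a subunit of a-agglutinin, rose by 3.06 ± 0.09 in footprints (adjusted p = 1.6e-19) in *eIF3a/b Degron* cells, and by 1.76 ± 0.18 (adjusted p = 7.58e-05) in *eIF3i DDKK* cells. *CIS3*, a PIR protein, fell in footprints, by −0.51 ± 0.07 in *eIF3a/b Degron* cells (adjusted p = 6.28e-07) and by −0.83 ± 0.21 in *eIF3i DDKK* cells (adjusted p = 0.00903). *HSP150*, which neighbours *CIS3* and shares the 65-nt match with it, rose in footprints in *eIF3a/b Degron* cells.

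Enzymes that work on the wall, the class to which *GAS1* belongs, were counted in TE beside 33.1% of all genes down in the Degron and 2.88% in the DDKK background. Of 23 wall remodelling enzymes other than *GAS1* in *eIF3a/b Degron* cells, 14 fell in TE and 0 rose (median −0.51, and 0 rose at an unadjusted p under 0.05 and in DESeq2), although 14 rose and 3 fell in mRNA (median 0.42). With library size alone 10 fell and 5 rose in TE. In mRNA 44.3% of all genes rose and 30.8% fell in the Degron background. *UTH1* fell, by −1.54 ± 0.12 (adjusted p = 5.71e-10) and *SUN4* by −1.43 ± 0.13 (adjusted p = 5.44e-09), both members of the SUN family of wall proteins. *GAS5*, a relative of *GAS1* with the same activity, fell, by −0.52 ± 0.09 in TE (adjusted p = 4.54e-05) and *GAS3* changed by −0.23 ± 0.11 (adjusted p = 0.0754). In *eIF3i DDKK* cells 1 of 22, the exoglucanase gene *EXG2*, fell in TE (−0.82 ± 0.16, adjusted p = 0.0267), a call that is lost with library size alone.

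The genes of glucan and chitin synthesis were counted next, beside the same shares of all genes. In *eIF3a/b Degron* cells 10 of 15 fell in TE and 1 rose (median −0.51, and 7 fell and 4 rose with library size alone). *FKS1*, the main glucan synthase gene, fell, by −1.50 ± 0.09 (adjusted p = 8.41e-12), and the chitin synthase gene *CHS3* by −1.16 ± 0.11 (adjusted p = 3.87e-09). *CHS3* fell in *eIF3i DDKK* cells as well (−1.01 ± 0.21, adjusted p = 0.0321), the only 1 of 15 to do so, and 0 of 15 fell there with library size alone. In mRNA *CHS3* had risen by 1.30 ± 0.07 in *eIF3a/b Degron* cells (adjusted p = 5.02e-14).

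The enzymes that modify the members on their way to the wall were counted in footprints, where 41.3% of all genes fell in the Degron and 26.2% in the DDKK background. Of 10 O-mannosylation genes, 9 fell in footprints in *eIF3a/b Degron* cells and 7 in *eIF3i DDKK* cells, with a median of −1.10 in either strain and 0 that rose in edgeR, in DESeq2 or at an unadjusted p under 0.05. Under library size alone the medians were −0.86 and −0.80, and 1 gene rose in *eIF3a/b Degron* cells. The mRNA of 7 of these 10 genes fell in *eIF3a/b Degron* cells (median −0.66), beside 30.8% of all genes. In *eIF3i DDKK* cells 8 of 10 fell in mRNA (median −0.89), beside 12.0% of all genes. In TE 7 fell and 1 rose in *eIF3a/b Degron* cells, or 4 and 2 with library size alone, beside 33.1% of all genes down. In *eIF3i DDKK* cells 0 of 10 were called in TE. *PMT2*, a protein mannosyltransferase gene, fell in footprints, by −2.53 ± 0.08 in *eIF3a/b Degron* cells (adjusted p = 6.42e-19) and by −2.35 ± 0.18 in *eIF3i DDKK* cells (adjusted p = 1.28e-05). In *eIF3i DDKK* cells its mRNA fell by −1.55 ± 0.17 (adjusted p = 0.000332). In *eIF3a/b Degron* cells its TE fell by −1.54 ± 0.10 (adjusted p = 2.53e-11). Of 22 GPI anchor genes 13 fell and 7 rose in footprints in *eIF3a/b Degron* cells, and 12 fell and 3 rose in *eIF3i DDKK* cells (medians −0.50 and −0.54). With library size alone 12 fell and 9 rose in *eIF3a/b Degron* cells, and 8 fell and 5 rose in *eIF3i DDKK* cells. *GPI15* rose in footprints in *eIF3a/b Degron* cells (1.73 ± 0.13, adjusted p = 1.29e-11). It also rose in *eIF3i DDKK* cells (0.88 ± 0.23, adjusted p = 0.0108). *MCD4*, an ethanolamine phosphate transferase gene beside *PIR1*, fell, by −3.02 ± 0.12 (adjusted p = 4.18e-17) and by −3.36 ± 0.23 (adjusted p = 6.89e-06).

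Genes of the cell wall integrity pathway moved in both directions. In *eIF3a/b Degron* cells 11 of 18 rose and 3 fell in mRNA (median 0.23, with 6 and 2 in DESeq2), and 2 rose and 7 fell in TE (median −0.25, but 0.06 with library size alone). Of all genes tested, 44.3% rose and 30.8% fell in mRNA there, and 26.8% rose and 33.1% fell in TE. *SLT2*, the MAP kinase of the pathway, rose by 2.75 ± 0.09 in mRNA (adjusted p = 1.19e-17) in *eIF3a/b Degron* cells. Its sensor gene *MTL1* fell, by −2.46 ± 0.22 in TE (adjusted p = 2.34e-09) there and by −1.19 ± 0.24 in *eIF3i DDKK* cells (adjusted p = 0.0282). *ROM2*, an exchange factor for Rho1, fell in TE by −1.35 ± 0.14 (adjusted p = 2.28e-08) in *eIF3a/b Degron* cells and by −1.04 ± 0.19 (adjusted p = 0.0233) in *eIF3i DDKK* cells. Of the same 18 genes, 7 rose and 2 fell in mRNA in *eIF3i DDKK* cells (median 0.38), beside 16.5% of all genes up and 12.0% down.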

How the data were processed

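Per the labels and the study's methods, mRNA and ribosome footprints of 4 strains were sequenced in 2 cultures each (16 libraries, 8 in each background). The authors deposited raw read counts per gene, which are not normalised and leave out 15 codons at the start and 5 at the end of each coding sequence, together with the length counted. A further table that the authors deposited holds log2 TE, log2 fold changes and p-values of their own comparisons and was not used. Their processing notes name CASAVA 1.8, TopHat2 2.1.0, Bowtie2 2.2.6.0, DESeq2 and the sacCer3 build, without parameters. Sequences, coordinates and neighbours came from RefSeq's R64 assembly, in which 5196 of 5450 matched genes had a coding sequence 60 nt longer than the length counted. All columns were mapped to a sample.

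Counts were fitted with edgeR 4.0.16 (R 4.3.3) in each background, with TMM scaling over its 8 libraries and genes with an average of at least 32 reads over 4 mRNA libraries. The TE change is the footprint change minus the mRNA change, an interaction term in the same model. Standard errors are the size of the log2 change over the square root of F, and p-values were adjusted over all genes tested (Benjamini-Hochberg, threshold 0.05). The fit of 16 libraries gave the differences between mutants. Levels of a gene across libraries are TMM-scaled reads per 1000000, and levels between genes are reads per kb per 1000000 of the library total. The model was tested on simulated data. Python 3.11.15, numpy 2.4.6, pandas 2.3.3, statsmodels 0.14.6 and matplotlib 3.10.9 were also used. Intervals on shares are 95% Wilson intervals, which cover no more than counting error because no molecular identifiers are named for these libraries. With 2 cultures a strain, values are given for each culture. How many of all genes had mutant and WT cultures that did not overlap was not counted, so that such a separation only describes the values. Alternatives were DESeq2 1.42.0, library size alone (also without *YDR445C*), no filter, 10 counts in every library, replicate or culture blocks, an adjusted p under 0.01, 16 libraries in one fit, and leaving out each culture.

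All 10 members were named for each background, called or not. In the differences between mutants not every member was named. From the other lists of wall genes, at most the 2 lowest and 2 highest changes among called genes with an average of 32 or more footprint reads over 4 libraries were named, and relatives of a member beside it (*CWP2*, *CIS3*, *PIR5*, *TIR2*, *TIR3*, *TIR4*, *GAS3*, *GAS5*). The members and lists were chosen with earlier results of these data known. The mRNA and footprint differences between mutants were added after the data were seen.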

Additional observations from a re-analysis of the deposited data

Results flagged for a closer look

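Of the members' changes, 4 differed between the 2 mutants in the test of the difference itself (the change in *eIF3a/b Degron* cells minus that in *eIF3i DDKK* cells). That was 2 of 9 in mRNA, beside 38.6% of all genes called, and 2 of 9 in footprints, beside 53.9%. In TE it was 0 of 9 without a block, beside 3.67%. *GAS1* mRNA differed by 1.10, from changes of 0.38 in *eIF3a/b Degron* and −0.77 in *eIF3i DDKK* cells in the fits of each background. In the fit of all 16 libraries they were 0.25 (adjusted p = 0.329) and −0.85 (adjusted p = 0.00663). The *GAS1* difference ran from 0.84 to 1.42 when 1 culture at a time was left out. Several of those fits lost the call, and in these the mRNA calls over all genes also became fewer. *PIR3* differed by 1.60 in mRNA, from changes of 2.62 and 0.97, and by 1.33 in footprints, from changes of 2.47 and 1.11, in the same order of strains. *SED1* differed by 0.89 in footprints, from changes of 1.45 and 0.54. The fit of all 16 libraries shares 1 scaling, so that its differences depart slightly from those of the single changes. Growth medium, temperature and length of the shift differ between the backgrounds in the same way as the mutations, and these cannot be told apart.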

How the results depend on the processing

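Changes of the members called under TMM kept their direction under each alternative tried. Among the values that turned direction, *PIR1* footprints in *eIF3a/b Degron* cells passed the test after turning (adjusted p = 0.0221 with library size alone and 0.021 without *YDR445C*), and the others did not. With library size alone, which moved the median of all genes by more than 0.1 (log2) in *eIF3a/b Degron* TE (0.27 against −0.04) and footprints (0.24 against 0.01) and in *eIF3i DDKK* TE (0.05 against −0.08), mRNA (0.28 against 0.11) and footprints (0.31 against 0.01), these were, with and without *YDR445C*, in *eIF3a/b Degron* cells the footprints of *TIP1* (0.13 in both), *PIR1* (0.16 in both) and *CWP1* (0.18 in both) and the TE of *HSP150* (0.11 and 0.07) and *PIR3* (0.16 and 0.11). In *eIF3i DDKK* cells they were *PIR1* mRNA (0.13 in both) and the TE of *SED1* (0.01 in both), *HSP150* (0.10 and 0.09) and *CCW14* (0.08 and 0.09). The differences that turned were those in mRNA of *TIP1* (−0.17), *SED1* (−0.15), *CCW12* (−0.07) and *CCW14* (−0.09) and in TE of *HSP150* (0.02). In the fit of all 16 libraries, where the median of all genes in TE was 0.13 for *eIF3a/b Degron* and 0.06 for *eIF3i DDKK*, *PIR3* TE was 0.02 in *eIF3a/b Degron* cells, and the *eIF3i DDKK* TE changes were 0.01 for *SED1*, 0.10 for *HSP150* and 0.11 for *CCW14*. With DESeq2 the TE changes of *HSP150* and *CCW14* in *eIF3i DDKK* cells were 0.04 and 0.05. The cause was not tested.

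In *eIF3a/b Degron* cells 2 members rose in TE in the fit of all 16 libraries, and 3 fell with the culture as a block. In *eIF3i DDKK* cells 6 rose in mRNA with library size alone and 5 without *YDR445C*, and 0 rose and 0 fell at an adjusted p under 0.01. There 2 fell in mRNA with DESeq2, with library size alone and in the fit of all 16 libraries. In footprints 6 rose there with library size alone, with or without *YDR445C*, and 1 at an adjusted p under 0.01. In the fit of all 16 libraries 5 rose in footprints there, beside 1806 up and 1460 down over all genes. In *eIF3i DDKK* TE 1 fell with the culture as a block (*GAS1*, −0.59, adjusted p = 0.0155). Of the differences in mRNA, 1 was positive at an adjusted p under 0.01 and 1 was negative with library size alone.

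Mutant and WT cultures share replicate numbers, but the labels do not say that a number marks a shared day, and with 2 pairs the correlation of same-numbered deviations was 0.0103 (mRNA) and −0.02 (footprints) in the Degron and 0.22 and 0.432 in the DDKK background. With a replicate block, 4 members rose and 2 fell in mRNA and 5 rose and 2 fell in footprints in *eIF3i DDKK* cells. Under the same block 4 footprint differences were positive, 1 was negative and 1 TE difference was positive (*SED1*, 0.85). Over all genes tested the block gave 154 up and 434 down in *eIF3i DDKK* TE, against 60 and 151 without it. In *eIF3i DDKK* mRNA it gave 1250 up and 841 down, against 867 and 630 without it. In footprints there it gave 1595 up and 1605 down, against 1375 and 1373. Among the differences it gave 1535 up and 1546 down in footprints and 238 up and 185 down in TE.

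Leaving out 1 culture at a time, the members called in *eIF3a/b Degron* cells numbered 1 to 2 falling in footprints, 2 to 4 rising in TE and 1 to 2 falling in TE. In *eIF3i DDKK* cells they numbered 0 to 3 rising and 0 to 2 falling in mRNA, and 0 to 3 rising and 1 to 2 falling in footprints. Of the differences 1 to 3 were positive and 0 to 1 negative in mRNA, 2 to 4 positive and 0 to 2 negative in footprints, and 0 to 1 positive in TE (*SED1*, 0.94, without DDKK mutant culture 1). Changes that turned direction ran from −0.07 to 0.88 for *CWP1* mRNA and from −0.27 to 0.14 for *CWP1* footprints in the *eIF3a/b Degron* mutant. For *eIF3i DDKK* they ran from −0.31 to 0.18 for *PIR1* mRNA, −0.10 to 0.29 for *PIR1* footprints, −0.00 to 1.03 for *CWP1* mRNA, and −0.16 to 0.13, −0.20 to 0.26 and −0.29 to 0.19 for the TE of *HSP150*, *CCW12* and *CCW14*. Among the differences they ran from −0.16 to 0.22 for *TIP1* mRNA, −0.12 to 0.20 for *SED1*, −0.78 to 0.42 for *CWP1*, −0.12 to 0.37 for *CCW12* and −0.10 to 0.31 for *CCW14* mRNA, from −0.29 to 0.01 for *HSP150* TE and from −0.40 to 0.00 for *PIR1* footprints. Over all genes, calls in *eIF3i DDKK* mRNA were 63 up and 103 down without WT culture 1 and 99 up and 153 down without WT culture 2. In *eIF3i DDKK* TE they were 230 up and 511 down without mutant culture 1, 1 up and 2 down without WT culture 1 and 3 up and 2 down without WT culture 2, and in *eIF3i DDKK* footprints 557 up and 726 down and 652 up and 777 down without WT culture 1 and 2. In the fit of all 16 libraries they were 1413 up and 930 down in *eIF3a/b Degron* TE, 1517 and 1666 in *eIF3a/b Degron* mRNA and 386 and 337 in *eIF3i DDKK* TE, and with DESeq2 46.7% of the calls in the last were up, against 28.4% with TMM. The culture as a block gave 234 up and 668 down there.

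Over all alternatives and single members, 824 values kept direction and side of the threshold, 58 newly passed it, 28 no longer passed and 53 turned direction. With 2 cultures a strain and no block, a small change in TE could not be told apart from no change in *eIF3i DDKK* cells. *TIR1* and, in the Degron background, *CWP1* had too few reads for a firm statement.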

Other observations

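*TIR2*, *TIR3* and *TIR4*, relatives of the weakly read *TIR1*, were also low, with 41, 931 and 7 footprint reads over the 4 footprint libraries of the Degron background and 58, 2051 and 18 in the DDKK background. *TIR3* was the one of them with enough reads to be followed. In *eIF3a/b Degron* cells it rose by 1.77 ± 0.18 in mRNA (adjusted p = 4.16e-09) and by 2.05 ± 0.15 in footprints (adjusted p = 8.58e-12), and in *eIF3i DDKK* cells its changes were 0.82 ± 0.29 (adjusted p = 0.0599) and 0.61 ± 0.26 (adjusted p = 0.0693).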
